A study of Mus musculus with 15 samples.

Results

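Treatment of 4T1 cells with BLA-A, the gold nanoparticle made with blackberry extract, was compared with no treatment by bulk RNA-seq. 4T1 is a mouse mammary carcinoma line that serves as a model of triple-negative breast cancer, and all groups were wild type. Members of the comparison were chosen by their labels as the 3 count columns of BLA-A and the 3 of untreated cells, 6 of the 15 columns of the series. The study drew the 3 columns of a condition as subsets of the reads of 1 sequenced library, so the columns were averaged and the comparison is between 2 of the 5 libraries. The labels also give each column a batch date of its own, and no date is shared between conditions, so batch and treatment cannot be told apart. The remaining libraries came from cells that received the plain blackberry (BLA) or blueberry (BLU) extract or blueberry gold nanoparticles (BLU-A), and each of these shares the untreated library as its reference. Treatment began a day after seeding at a concentration of 200 µg/mL across treatments, and the duration for the sequenced cells was not given in the sources used here. Each condition had 1 library, so no difference below has a replicate check and none carries a p-value. Intervals and floors cover counting error only. Summed counts were 25778154 in the untreated and 25613778 in the BLA-A library.

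Both libraries carried the transcripts of the labelled carcinoma line. The 9 markers of 4T1 cells, among them the epithelial keratin Krt18, the cadherin Cdh1 and the mesenchymal filament Vim, summed to 9604 CPM (counts scaled to a common library size) in untreated and 10842 CPM in BLA-A-treated cells, and none passed the threshold used below. The markers went both ways within the threshold. Their log2 fold changes were -0.93 for Vim and -0.79 for Epcam, and from 0.27 (Krt18) to 0.91 (Cdh1) for the others. Among receptors that define breast cancer subtypes, Esr1, the estrogen receptor, was at 24.2 CPM in untreated and 21.1 CPM in BLA-A-treated cells. Erbb2 was at 33.5 CPM in untreated and 55.99 CPM in BLA-A-treated cells, and Pgr, the progesterone receptor, at 0.938 and 0.216 CPM, which passed the threshold downward (-1.01 on the log2 scale). Of leukocyte markers, Ptprc went from 40 to 7 counts and Adgre1 from 2.14 to 0.216 CPM, both past the threshold, and 2 of 4 tested markers were lower. The 5 leukocyte markers summed to 11.9 and 9.66 CPM, of which Cd68 made up 7.35 and 8.80 CPM. In BLA, BLU and BLU-A, Ptprc had 5, 31 and 10 counts and Adgre1 was at 0.698, 0.581 and 0.604 CPM. Adgre1 was thus below its untreated level in every treated library, while Ptprc in BLU was nearer to it. The samples were cultures of the carcinoma line, and which cells gave these low counts cannot be told from bulk RNA. The fibroblast markers Col3a1 and Lum had 0 counts in both libraries, while Pdgfra, a receptor that some carcinoma lines also carry, was at 90.4 CPM in untreated and 98.2 CPM in BLA-A-treated cells.

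Gold nanoparticles are taken up by cells through endocytosis and collect in endosomes and lysosomes, and berry extracts are rich in anthocyanins and other polyphenols. Immediate early genes code for short-lived transcription factors and regulators that are transcribed within minutes of growth factor, stress or cytokine signals. The unfolded protein response raises chaperones of the endoplasmic reticulum when folding there is strained, and sterol synthesis genes are driven by the SREBP factors. In 4T1 cells, secreted colony-stimulating factors and chemokines are known to recruit neutrophils and monocytes to the tumor.

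In the count table, 17647 of 40402 genes reached 1 CPM in at least 1 of the 5 libraries and were compared. A gene was called higher or lower when its log2 fold change, taken on TMM-normalized CPM plus 0.5, was over 1 or under -1. In BLA-A-treated cells 1507 genes were higher (8.54% of those tested) and 2187 lower (12.4%). Higher genes made up 40.8% of the called genes, and 28.4% when the libraries were scaled by total counts alone, a scaling with 1077 higher and 2710 lower genes that shifts the all-gene median log2 fold change by -0.17. With upper-quartile scaling the share was 32.6%, a shift of -0.11. All changes below are on the TMM scale, where the median log2 fold change of all tested genes was -0.01. Counts of list members past the threshold are to be read against the shares of all tested genes, 8.54% higher and 12.4% lower.

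The lower genes were mostly weakly expressed ones. Of genes under 1 CPM on average over the pair of libraries, 29.7% were lower and 4.37% higher. Among genes of at least 100 CPM the order was the other way round, with 203 genes higher (8.28%) and 77 lower (3.14%). Fewer genes were detected after treatment, since 25724 genes had at least 1 count in untreated cells and 23614 in BLA-A-treated cells.

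Base composition and gene length moved with the direction of change. Protein-coding genes were split into deciles by the GC content of their longest transcript. In the decile of lowest GC content, up to 41.5%, 2.93% of genes were higher and 15.4% lower in BLA-A-treated cells. In the decile of highest GC content, above 57.2%, the shares were 18.2% and 5.49%, and the median log2 fold change went from -0.21 to 0.37. Between the same deciles the median in the BLA library went from -0.02 to -0.11, in BLU from 0.07 to -0.14 and in BLU-A from -0.01 to 0.00. Of genes under 10 kb long, 16.7% were higher and 7.56% lower. Of genes over 200 kb, 1.92% were higher and 45.01% lower. Among genes of at least 10 CPM the share of lower genes over 200 kb was 6.54%. The part of GC content or length in the results below was not tested, and the counts of several gene lists are also given after the median log2 fold change of genes in the same GC decile was subtracted, a setting chosen after seeing the data.

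**Figure D1:**
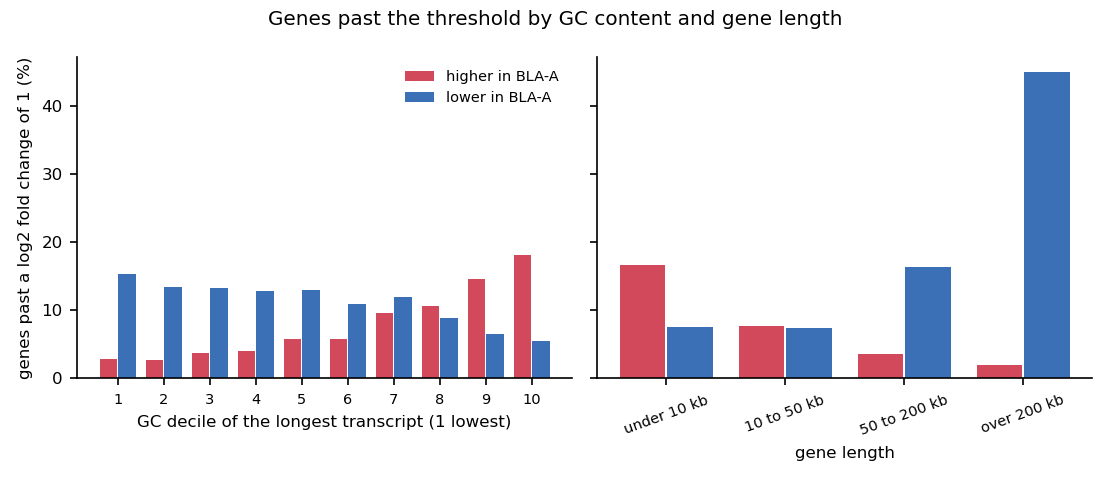
Percent of tested genes called higher or lower in BLA-A-treated cells (y axis), by GC decile of the longest transcript in protein-coding genes (left) and by gene length (right). Red bars stand for genes higher and blue bars for genes lower in BLA-A. Higher genes increase with GC content, from 2.93% to 18.2%, and 45.01% of genes over 200 kb were lower.

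Ranked by log2 fold change, the largest rise among genes of at least 10 CPM was that of Rn7sk. This 7SK RNA holds the elongation kinase P-TEFb inactive. Rn7sk was at 91.4 CPM in untreated and 3470.3 CPM in BLA-A-treated cells, 37.97-fold higher (95% interval 36.5 to 39.5). In the other treated libraries it was at 75.7 (BLA), 58.7 (BLU) and 93.7 CPM (BLU-A), close to the untreated level. Rmrp, the RNA of the RNase MRP complex that processes ribosomal RNA precursors, was at 64.4 CPM in untreated and 898 CPM in BLA-A-treated cells, 13.9-fold higher (95% interval 13.3 to 14.7), against 68.9 (BLA), 52.3 (BLU) and 60.3 CPM (BLU-A). Rpph1, the RNA subunit of RNase P, was at 946 CPM in untreated and 2572 CPM in BLA-A-treated cells, and at 1597 (BLA), 789.6 (BLU) and 1272 CPM (BLU-A). Rn7s1, a gene of the signal recognition particle RNA, was at 0.976 CPM in untreated and 14.8 CPM in BLA-A-treated cells, and the telomerase RNA Terc at 2.06 and 7.16 CPM. Rn7s2, a near-identical copy of Rn7s1, was at 3.60 and 4.70 CPM, so reads may be split between these copies. Rpph1, Terc and Rn7s2 were named after their values were seen. Rn7sk, Rmrp, Rpph1, Rn7s1 and Terc passed the threshold upward and Rn7s2 did not. Rn7sk and Rmrp, with the largest log2 fold changes of these RNAs, are shown because their length and structure set them apart from messenger RNA. The first 300 of 331 bases of Rn7sk (chr9:78082616-78082915, minus strand) and all 281 bases of Rmrp (chr4:43492783-43493063, minus strand), from the GENCODE M39 transcripts on GRCm39, read 5′ to 3′:
Rn7sk: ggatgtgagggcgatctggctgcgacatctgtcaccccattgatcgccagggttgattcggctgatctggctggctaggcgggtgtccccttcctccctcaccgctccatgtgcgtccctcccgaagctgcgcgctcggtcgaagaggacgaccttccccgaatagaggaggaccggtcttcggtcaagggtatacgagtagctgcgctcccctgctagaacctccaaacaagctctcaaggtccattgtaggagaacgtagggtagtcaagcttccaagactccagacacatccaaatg
Rmrp: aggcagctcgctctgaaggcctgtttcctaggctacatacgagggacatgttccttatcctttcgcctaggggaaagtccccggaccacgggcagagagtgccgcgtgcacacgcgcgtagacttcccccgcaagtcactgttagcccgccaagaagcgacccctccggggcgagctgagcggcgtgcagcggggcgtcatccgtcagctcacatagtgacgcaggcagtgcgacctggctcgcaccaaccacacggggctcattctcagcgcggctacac

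Klf2, a zinc finger transcription factor of the immediate early class, had the largest rise among protein-coding genes of at least 10 CPM. It was at 2.03 CPM in untreated and 55.5 CPM in BLA-A-treated cells, 27.4-fold higher (95% interval 20.9 to 36.7). Cebpb, a bZIP factor of inflammation and the integrated stress response, was at 14.5 CPM in untreated and 235 CPM in BLA-A-treated cells, 16.1-fold higher (95% interval 14.6 to 17.9). In the other treated libraries Klf2 was at 4.85 (BLA), 3.41 (BLU) and 3.92 CPM (BLU-A). Cebpb was at 11.4 (BLA), 14.3 (BLU) and 10.9 CPM (BLU-A), at or below its untreated level. Pcsk5, a proprotein convertase, was at 1.39 CPM in untreated and 21.3 CPM in BLA-A-treated cells, and Prl2c3, a prolactin family member, was at 0.938 and 15.1 CPM. Several long noncoding RNA loci were in the same range, such as Gm42252 at 0.675 and 40.5 CPM and 0610039K10Rik at 0.300 and 15.6 CPM. Abundant genes, with a mean of at least 100 CPM, also rose. Stc1, the secreted hormone stanniocalcin, was at 39.4 CPM in untreated and 230.4 CPM in BLA-A-treated cells. Myadm, a membrane protein of lipid rafts, went from 107 to 605 CPM, and Degs1, the ceramide-forming desaturase, from 57.6 to 289 CPM. Ubb, a polyubiquitin gene, went from 52.1 to 249 CPM, and B4galt5, the lactosylceramide synthase, from 103 to 488 CPM.

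**Figure D2:**
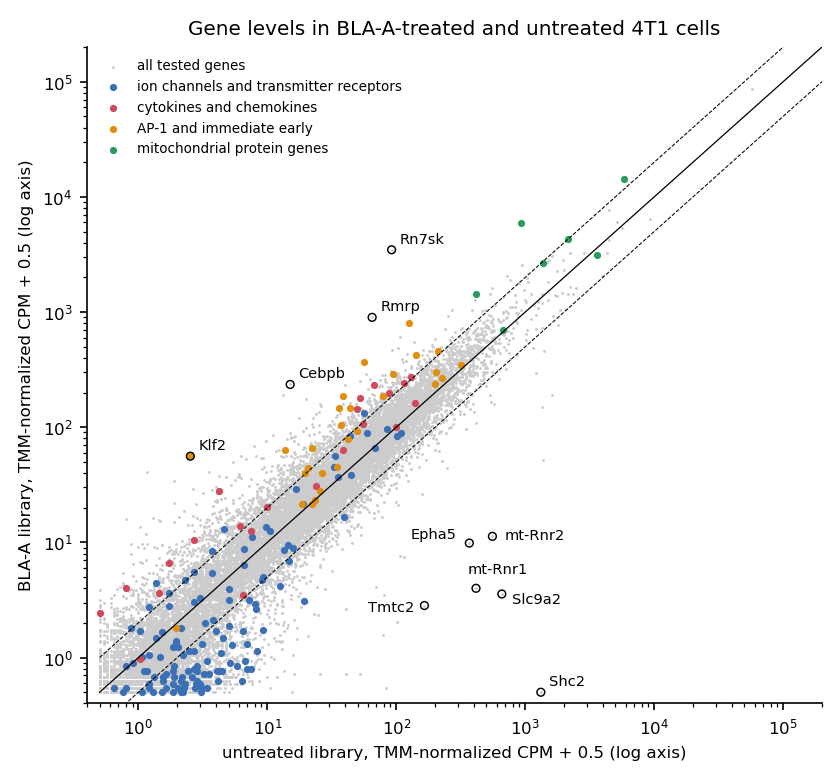
TMM-normalized CPM plus 0.5 of each tested gene in the untreated (x axis) and the BLA-A library (y axis), both axes logarithmic. Grey points are all tested genes, coloured points are members of 4 gene lists, open circles mark named genes, the solid line is equality and the dashed lines a 2-fold difference. Rn7sk and Rmrp lie far above the lines, and mt-Rnr1, mt-Rnr2, Slc9a2 and Shc2 far below them.

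The largest falls included the mitochondrial ribosomal RNAs. mt-Rnr1, the 12S RNA of the small subunit, was at 414 CPM in untreated and 3.49 CPM in BLA-A-treated cells, 119-fold lower (95% interval 95.3 to 149). mt-Rnr2, the 16S RNA of the large subunit, was at 556 CPM in untreated and 10.8 CPM in BLA-A-treated cells, 51.5-fold lower (95% interval 45.5 to 58.6). In the other treated libraries mt-Rnr1 was at 341 (BLA), 436 (BLU) and 360.4 CPM (BLU-A), and mt-Rnr2 at 501 (BLA), 554 (BLU) and 483 CPM (BLU-A), all within 1.5-fold of untreated cells. Ribosomal RNA was removed from all samples before library construction, and the part of that step in these values was not tested. Several long or noncoding genes showed the same order, with BLA-A far below the untreated and the other treated libraries. Tmtc2, a mannosyltransferase gene, was at 165 CPM in untreated and 2.33 CPM in BLA-A-treated cells and at 221 (BLA), 144 (BLU) and 114 CPM (BLU-A). Epha5, an ephrin receptor, was at 368 CPM in untreated and 9.36 CPM in BLA-A-treated cells and at 215 (BLA), 305 (BLU) and 313 CPM (BLU-A). Gm53756 went from 382 to 5.31 CPM and Gm36876 from 1378 to 51.8 CPM. Cmss1 and Filip1l, annotated on opposite strands of the same stretch of chromosome 16, went from 1622 to 189.8 CPM and from 1339.6 to 149 CPM. Cdk8, the kinase of the Mediator complex, went from 414 to 109 CPM, against 523 (BLA), 391 (BLU) and 304 CPM (BLU-A).

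Other large falls were common to every treated library, so that the untreated library stood apart. Shc2, a signaling adaptor on chromosome 10 from 79453760 to 79473769 of GRCm39, had 35169 counts in untreated and 0 in BLA-A-treated cells, at least 10197-fold lower against a floor of 3 counts in the library. Its counts were 1, 3 and 0 in BLA, BLU and BLU-A. Slc9a2, a sodium/proton exchanger, was at 657 CPM in untreated and 3.06 CPM in BLA-A-treated cells, 215-fold lower (95% interval 170.0 to 275), and at 4.44 (BLA), 3.66 (BLU) and 4.41 CPM (BLU-A). Gm36303, a long noncoding RNA locus, had 2201 counts in untreated and 1 in BLA-A-treated cells, a ratio of 1914 with a 95% interval of 343 to 75650.0. Fam20a, a pseudokinase of enamel formation, was at 24.9 CPM in untreated and 0.216 CPM in BLA-A-treated cells, and at 1.80 (BLA), 1.38 (BLU) and 1.58 CPM (BLU-A). Pik3cg, a catalytic subunit of PI3K found mainly in leukocytes, had 403 counts and 0, at least 117-fold lower. For these genes the difference lies in a high value of the shared untreated library, and 1 library cannot show whether that level is usual for untreated 4T1 cells. Shc2, Slc9a2, Gm36303, Fam20a and Pik3cg each overlap another annotated gene on the opposite strand. The share of all tested genes with such an overlap is not given here, and the part of overlap was not tested.

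**Figure D3:**
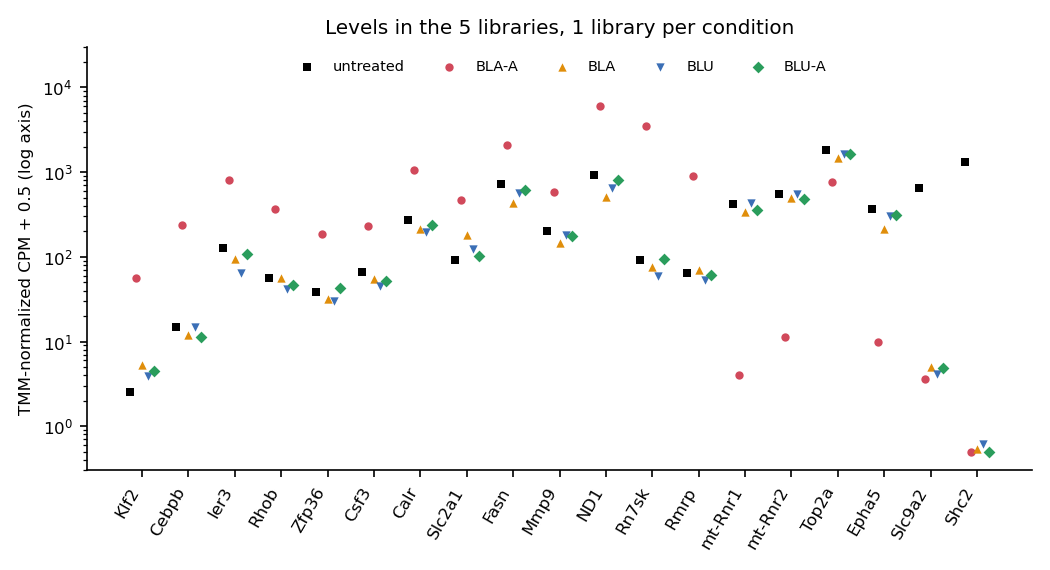
TMM-normalized CPM plus 0.5 (y axis, log scale) of 19 named genes in the 5 libraries, 1 library per condition, with no error bars because there are no replicates. The BLA-A points (red circles) stand apart from the others for most genes, as for Rn7sk at 3470.3 CPM, while for Slc9a2 and Shc2 the untreated point (black square) stands apart.

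Many of the immediate early genes were higher past the threshold and none were lower. Of the list of AP-1 subunits and other early genes, 15 of 28 tested members were higher past the threshold (53.6%) and 0 lower (0%), against 8.54% and 12.4% of all tested genes, with a median log2 fold change of 1.07. Rhob, a small GTPase whose message turns over rapidly, was at 55.3 CPM in untreated and 366 CPM in BLA-A-treated cells, 6.62-fold higher (95% interval 6.26 to 7.0). Ier3, a stress-inducible regulator of survival, was at 125 CPM in untreated and 804 CPM in BLA-A-treated cells, 6.44-fold higher (95% interval 6.21 to 6.69). Zfp36 codes for tristetraprolin, which binds AU-rich messages and promotes their decay. It was at 37.9 CPM in untreated and 185 CPM in BLA-A-treated cells, 4.88-fold higher (95% interval 4.55 to 5.23). None of these genes was higher than 108 CPM in BLA, BLU or BLU-A. The zinc finger factor Egr1 went from 210.3 to 461 CPM and the AP-1 subunit Jund from 142 to 424 CPM. The remaining higher members, which included Fos, Junb, Atf3, Dusp1 and Nr4a1, had log2 fold changes from 1.03 for Ier5 to 2.20 for Fos. Other members stayed within the threshold. Jun was at 314 CPM in untreated and 343 CPM in BLA-A-treated cells (log2 fold change 0.13), and Fosl1, Klf6 and Ier2 had log2 fold changes of 0.24, 0.57 and 0.24.

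The median of the early genes was 0.05 (BLA), -0.14 (BLU) and 0.08 (BLU-A) against the same untreated library. Scaling by total counts gave 12 higher, 0 lower and a median of 0.88. With the GC decile median subtracted the list had 13 members higher and 0 lower, and a median of 0.91, and the median transcript GC content of its members was 54.5%. Feedback genes of the ERK pathway, which early genes share as an input, had 3 higher and 0 lower of 16. Epha2, an ephrin receptor, went from 189 to 463 CPM, Dusp7, an ERK phosphatase, from 56.3 to 133 CPM and Spry2, an inhibitor of receptor signaling, from 33.4 to 75.02 CPM, while Dusp6 was at 171 CPM in untreated and 149.9 CPM in BLA-A-treated cells. Promoter windows of 250 bases before to 50 after the start, from RefSeq on GRCm38.p6, were searched on both strands for the cyclic AMP response element TGACGTCA. It was found in 2 of 14 higher members with a window, Dusp1 and Maff, and in 3.02% of all 13323 tested genes with a window. The AP-1 site TGAGTCA was in 1 of the same 14 windows, that of Csrnp1, and in 5.34% of all windows. Of all list members with a window, 3 of 23 had the first element and 1 of 23 the AP-1 site. Dusp1, a phosphatase that switches off MAP kinases, was at 35.3 CPM in untreated and 147 CPM in BLA-A-treated cells. Its window (chr17:26508423-26508722, minus strand, GRCm38.p6) is shown with the element in capitals, and a match is a description and not a proven site:
Dusp1: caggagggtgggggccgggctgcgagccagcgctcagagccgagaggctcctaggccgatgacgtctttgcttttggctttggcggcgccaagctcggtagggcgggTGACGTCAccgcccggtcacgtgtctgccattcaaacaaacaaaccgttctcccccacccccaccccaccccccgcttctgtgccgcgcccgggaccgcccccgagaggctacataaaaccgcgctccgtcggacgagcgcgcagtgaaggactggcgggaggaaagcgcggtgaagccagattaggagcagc

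Colony-stimulating factors, cytokines and chemokines were the list with the highest median log2 fold change, 1.11, and 14 of 22 tested members were higher past the threshold (63.6%) and 0 lower (0%). Csf3, the granulocyte colony-stimulating factor, was at 66.6 CPM in untreated and 233 CPM in BLA-A-treated cells, 3.50-fold higher (95% interval 3.32 to 3.69). Csf1, which drives monocytes and macrophages, went from 130.5 to 273 CPM. The epithelial cytokine Tslp went from 115 to 240.4 CPM and the membrane chemokine Cx3cl1 from 87.8 to 199.6 CPM. In the BLA, BLU and BLU-A libraries Csf3, Csf1, Tslp and Cx3cl1 lay between 44.6 and 125 CPM. Ccl2, the monocyte chemoattractant, was at 3.75 CPM in untreated and 27.2 CPM in BLA-A-treated cells, and Lif, a cytokine of the IL-6 family, at 51.4 and 180.2 CPM, both named after their values were seen. Cxcl1 and Cxcl5, neutrophil chemokines, did not pass the threshold, at log2 fold changes of 0.23 and 0.03. The list medians in BLA, BLU and BLU-A were 0.08, 0.02 and 0.00. Scaling by total counts gave 9 higher, 1 lower and a median of 0.93, and subtracting the GC decile median gave 13 members higher and 0 lower. Of 27 listed genes in the table, Il6, Tnf, Ccl7, Cxcl12 and Il1rn did not reach 1 CPM in any library.

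Genes of the NF-kB pathway, a main input to these cytokines, had a lower share past the threshold than the cytokines. In that list 3 of 19 tested members were higher past the threshold (15.8%) and 0 lower (0%), with a median of 0.45, and scaling by total counts gave 1 higher, 0 lower and a median of 0.28. Nfkbia, the inhibitor IkB alpha, went from 61.2 to 134 CPM, Nfkbiz, a nuclear IkB protein, from 74.4 to 152 CPM, and Nfkbib from 9.91 to 25.5 CPM. Tnfaip3, the A20 deubiquitinase, was at 126 CPM in untreated and 169.5 CPM in BLA-A-treated cells (log2 fold change 0.42). Interferon-stimulated genes had 1 higher and 1 lower of 27 and a median of -0.25, with Bst2 at 1.69 CPM in untreated and 7.25 CPM in BLA-A-treated cells and Usp18 at 4.43 and 1.16 CPM. The letters GGGA and TTTCC with any base between them, a form of the NF-kB site, were in the promoter windows of 3 of 10 higher cytokine genes with a window and of 0.51% of all tested genes with one. Of all list members with a window, 4 of 14 had a match. The matches of higher members lie in Csf1, Cxcl2 and Cxcl3. The windows of Csf1 (chr3:107760420-107760719, minus strand) and Cxcl2 (chr5:90903649-90903948, plus strand), both GRCm38.p6, are shown with the fixed letters of the match in capitals:
Csf1: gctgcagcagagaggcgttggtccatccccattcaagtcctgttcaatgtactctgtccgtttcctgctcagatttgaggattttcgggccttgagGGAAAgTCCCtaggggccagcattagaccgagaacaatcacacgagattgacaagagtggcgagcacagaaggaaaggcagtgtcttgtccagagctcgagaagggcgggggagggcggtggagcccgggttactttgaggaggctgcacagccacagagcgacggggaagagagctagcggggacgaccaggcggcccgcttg
Cxcl2: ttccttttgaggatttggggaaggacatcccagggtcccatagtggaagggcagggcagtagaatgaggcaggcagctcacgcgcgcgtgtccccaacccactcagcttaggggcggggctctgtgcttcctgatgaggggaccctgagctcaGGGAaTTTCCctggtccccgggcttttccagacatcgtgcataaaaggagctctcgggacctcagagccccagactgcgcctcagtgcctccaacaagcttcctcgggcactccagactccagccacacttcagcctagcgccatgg

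Genes of the unfolded protein and integrated stress responses were higher in part. Of this list 12 of 36 tested members were higher past the threshold (33.3%) and 0 lower (0%), with a median of 0.46. Calr, the calcium-binding chaperone calreticulin, was at 270.1 CPM in untreated and 1049 CPM in BLA-A-treated cells, 3.89-fold higher (95% interval 3.78 to 3.99), and at 215 (BLA), 193 (BLU) and 235 CPM (BLU-A). The disulfide isomerases Pdia4 and Pdia6 went from 76.5 to 227 CPM and from 176 to 370.0 CPM. Hspa5, the chaperone BiP that is the usual marker of this response, was at 2481 CPM in untreated and 1611 CPM in BLA-A-treated cells (log2 fold change -0.62), and Hsp90b1 and Canx had log2 fold changes of 0.18 and 0.33. The members that passed thus did not include BiP, and the largest of them, Cebpb, is also an inflammatory factor. Scaling by total counts gave 9 higher, 0 lower and a median of 0.27, and subtracting the GC decile median gave 11 members higher and 1 lower. The list had medians of 0.21 (BLA), -0.23 (BLU) and -0.12 (BLU-A). The ER stress element, CCAAT and CCACG with a spacer of 9 bases between them, was in the windows of 4 of 12 higher members, Calr, Creld2, Dnajc3 and Pdia6. It was in the windows of 7 of 32 members with a window in all, and of 0.165% of all tested genes with a window. The windows of Calr (chr8:84846882-84847181, minus strand, read on its own strand) and Pdia6 (chr12:17266339-17266638, plus strand), from GRCm38.p6, carry it in opposite orientations, with its fixed letters in capitals:
Calr: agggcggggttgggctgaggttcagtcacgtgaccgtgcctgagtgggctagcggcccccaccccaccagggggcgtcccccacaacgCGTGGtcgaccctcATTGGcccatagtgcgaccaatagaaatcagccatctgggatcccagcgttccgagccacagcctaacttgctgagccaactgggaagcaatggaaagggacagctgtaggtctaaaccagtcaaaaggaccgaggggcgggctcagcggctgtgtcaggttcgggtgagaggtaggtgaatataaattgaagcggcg
Pdia6: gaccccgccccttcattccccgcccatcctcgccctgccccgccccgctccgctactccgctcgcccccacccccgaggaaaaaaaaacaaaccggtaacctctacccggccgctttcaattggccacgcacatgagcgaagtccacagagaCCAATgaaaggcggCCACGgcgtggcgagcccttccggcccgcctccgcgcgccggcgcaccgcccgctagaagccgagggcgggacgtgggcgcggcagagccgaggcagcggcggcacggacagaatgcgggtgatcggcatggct

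Other stress lists had between 1 and 3 members higher. Of cytosolic heat shock proteins 3 of 19 tested members were higher past the threshold (15.8%) and 0 lower (0%), and the median of 0.08 turned to -0.11 with scaling by total counts. Hspa1b, an inducible Hsp70, went from 21.1 to 53.7 CPM, while Hsph1 was at 476 CPM in untreated and 299 CPM in BLA-A-treated cells. In the list of NRF2 targets and antioxidant enzymes 3 of 31 tested members were higher past the threshold (9.68%) and 0 lower (0%), and scaling by total counts gave 1 higher, 2 lower and a median of 0.26. Hmox1, heme oxygenase, was at 3.60 CPM in untreated and 22.6 CPM in BLA-A-treated cells, 6.29-fold higher (95% interval 5.05 to 7.90), and Prdx1 went from 133 to 275 CPM, while Sqstm1 and Abcc1 had log2 fold changes of 0.35 and 0.75. Metallothioneins and zinc transporters, which respond to metal ions, had 3 higher and 0 lower of 18 (1 and 0 with total-count scaling), and the higher ones were the transporters Slc39a10, Slc39a1 and Slc30a6. Of the aryl hydrocarbon receptor and its targets, which respond to plant flavonoids, only Ahrr passed the threshold among 7 tested members, at 0.338 CPM in untreated and 3.28 CPM in BLA-A-treated cells. Genes of iron handling and ferroptosis had 2 higher and 1 lower of 15 (2 and 2 with total-count scaling), with Lpcat3, a phospholipid acyltransferase, going from 32.5 to 87.9 CPM and the ferritin chain Fth1 at 1497 CPM in untreated and 1259.5 CPM in BLA-A-treated cells.

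Genes of glycolysis and the hypoxia response were higher in part. In the list of glycolysis and hypoxia genes 10 of 31 tested members were higher past the threshold (32.3%) and 1 lower (3.23%), with a median of 0.74. Slc2a1, the glucose transporter GLUT1, was at 91.4 CPM in untreated and 471 CPM in BLA-A-treated cells, 5.16-fold higher (95% interval 4.93 to 5.39), and at 179 (BLA), 123 (BLU) and 102 CPM (BLU-A). Ndrg1, a hypoxia-induced gene, went from 161 to 471 CPM, and was at 349 CPM in BLA. The glycolytic enzymes Tpi1 and Gpi1 went from 149.8 to 379 CPM and from 146 to 352 CPM. Eno1, the enolase of the same pathway, was lower, at 867 CPM in untreated and 421 CPM in BLA-A-treated cells, and Pkm and Ldha had log2 fold changes of 0.87 and 0.68. The median of this list was 0.52 (BLA), 0.01 (BLU) and -0.03 (BLU-A). With total-count scaling it had 8 higher, 1 lower and a median of 0.55, and subtracting the GC decile median gave 10 members higher and 2 lower. The core hypoxia element ACGTG was in the promoter windows of 6 of 9 higher members with a window, 21 of 29 members in all and 26.9% of all windows. Gapdh, Eno1 and others have processed copies in the genome, and reads of low mapping quality were not counted, so their levels are uncertain.

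Of genes of sterol and fatty acid synthesis 8 of 33 tested members were higher past the threshold (24.2%) and 1 lower (3.03%), with a median of 0.52. Fasn, the fatty acid synthase, was at 720.3 CPM in untreated and 2070.1 CPM in BLA-A-treated cells, 2.87-fold higher (95% interval 2.83 to 2.92), and at 434 (BLA), 559 (BLU) and 622 CPM (BLU-A). Srebf2, the factor that drives sterol synthesis, went from 172 to 424 CPM. Stard4, a sterol carrier, was lower, at 91.7 CPM in untreated and 42.8 CPM in BLA-A-treated cells, and the desaturase Scd2 had a log2 fold change of 0.19. In BLA, BLU and BLU-A the list median was -0.51, -0.28 and -0.16, below 0 in each. With total-count scaling the list had 8 higher, 1 lower and a median of 0.33, and subtracting the GC decile median gave 6 members higher and 1 lower. A sterol element, TCACNCCAC, was in the windows of 0 of 6 higher members with a window, 1 of 23 members in all and 1.45% of all windows.

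Messages of the mitochondrial genome were higher in part, opposite to its ribosomal RNAs. Of 13 protein genes, 7 had counts enough to test and 4 passed the threshold upward. ND1, a subunit of complex I whose gene follows mt-Rnr2 on the same strand, was at 924 CPM in untreated and 5956 CPM in BLA-A-treated cells, 6.44-fold higher (95% interval 6.36 to 6.53). ND4 went from 411 to 1445 CPM, COX1, a subunit of cytochrome oxidase, from 5865 to 14209 CPM and CYTB from 2133 to 4274 CPM. ND2, ND5 and ND6 had log2 fold changes of 0.96, -0.19 and 0.05. The median was 1.00, and -0.83, -0.35 and -0.03 in BLA, BLU and BLU-A. These messages are GC-poor, with a median GC content of 37.1%. With total-count scaling the list had 3 higher, 0 lower and a median of 0.81. COX2, COX3, ATP6, ATP8, ND3 and ND4L did not reach 1 CPM in any library. Reads of low mapping quality were not counted, and the part of that limit in the levels of mitochondrial genes was not tested. Nuclear genes of the respiratory chain went both ways, 13 higher and 8 lower of 80, with a median of 0.24, and scaling by total counts gave 12 higher, 12 lower and a median of 0.05. Atp5mc3, a ring subunit of ATP synthase, went from 23.5 to 130.1 CPM and Ndufa4 from 22.2 to 100.3 CPM, while Atp5po and Atp5mj, subunits of the same enzyme, went from 209.7 to 72.5 CPM and from 87.8 to 28 CPM.

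Genes of the matrix, its proteases and the lysosome had more higher than lower members. Of collagens, laminins, integrins and matrix proteins 10 of 44 tested members were higher past the threshold (22.7%) and 3 lower (6.82%), with a median of 0.59. Hspg2, the basement membrane proteoglycan perlecan, was at 407 CPM in untreated and 1282 CPM in BLA-A-treated cells, 3.15-fold higher (95% interval 3.08 to 3.22). The laminin chains Lama5 and Lamc1 went from 549 to 1623 CPM and from 489 to 1051 CPM, and their receptor subunit Itga3 from 756 to 1909 CPM. Fn1, fibronectin, had a log2 fold change of 0.78 at 4441 CPM in untreated and 7629 CPM in BLA-A-treated cells. The lower members Fbn1, Col5a2 and Lama4 were under 4 CPM in both libraries. Subtracting the GC decile median gave 7 members higher and 3 lower, with a median of 0.29 in place of 0.59. Total-count scaling also gave 7 higher and 3 lower, with a median of 0.39. Among matrix proteases and their inhibitors 8 of 25 tested members were higher past the threshold (32%) and 1 lower (4.0%). The median was 0.24, and scaling by total counts gave 6 higher, 1 lower and a median of 0.05. Mmp9, the gelatinase B tied to invasion, was at 200.4 CPM in untreated and 582 CPM in BLA-A-treated cells, 2.90-fold higher (95% interval 2.81 to 2.998), and at 143 (BLA), 182 (BLU) and 176 CPM (BLU-A). Plaur, the urokinase receptor, went from 58.5 to 168 CPM, the protease Adamts1 from 43.6 to 114 CPM and Mmp10 from 42.6 to 111 CPM, while Mmp3 and Mmp14 had log2 fold changes of 0.66 and 0.48.

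In the list of lysosome and autophagy genes 10 of 51 tested members were higher past the threshold (19.6%) and 2 lower (3.92%), with a median of 0.62. Psap, the precursor of the saposins that activate lipid hydrolases, was at 136 CPM in untreated and 549 CPM in BLA-A-treated cells, 4.03-fold higher (95% interval 3.89 to 4.18). Lamp1, the main membrane protein of lysosomes, went from 259 to 571 CPM, the protease Ctsd from 158 to 426 CPM and the autophagosome protein Gabarap from 60.5 to 158 CPM. Its relative Gabarapl2 went from 34.8 to 11.3 CPM and Scarb2, the receptor that carries glucocerebrosidase, from 1144 to 484 CPM. Ctsb, Lamp2 and Sqstm1 had log2 fold changes of 0.03, 0.06 and 0.35, within the threshold. Clathrin, caveolin and other endosome genes had 1 higher and 0 lower of 26 (0 and 0 with total-count scaling), the higher one being Ap2a1, a subunit of the clathrin adaptor, at 40.9 CPM in untreated and 85.8 CPM in BLA-A-treated cells. Scaling by total counts gave 8 higher, 2 lower and a median of 0.43 for the lysosome list, and subtracting the GC decile median gave 8 members higher and 2 lower. Of the class I antigen presentation list 5 of 15 tested members were higher past the threshold (33.3%) and 1 lower (6.67%). B2m, the light chain of class I molecules, went from 316 to 706 CPM, the heavy chains H2-D1 and H2-K1 from 155 to 343 CPM and from 90.9 to 288 CPM, and the immunoproteasome subunit Psmb8 from 26.5 to 6.69 CPM. With total-count scaling 2 members of the list were higher. Heavy chain genes are close copies of each other, so their separate levels are uncertain.

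**Figure D4:**
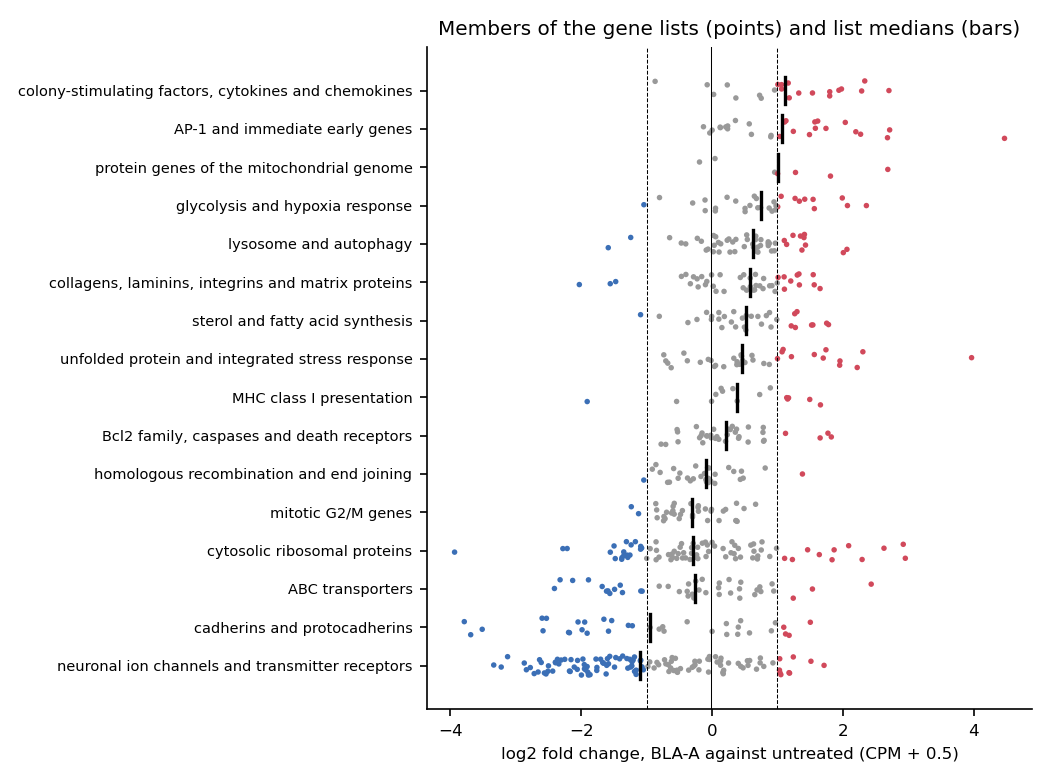
Log2 fold change of BLA-A against untreated cells (x axis, on CPM plus 0.5) of each tested member of 16 gene lists (points), with the list median as a black bar, dashed lines at -1 and 1 and a thin line at the median of all genes. Red points are higher and blue points lower past the threshold. Cytokines and early genes have the highest medians, 1.11 and 1.07, and ion channels the lowest, -1.10 (0.05 over members of at least 10 CPM).

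Replication-dependent histone genes split by histone class. In all, 56 of 67 listed genes were tested, 20 with a higher and 8 with a lower level. Among genes for H3, 9 of 11 were higher and 0 lower, with a median of 1.82. Among genes for H2A, 2 of 15 were higher and 7 lower, with a median of -0.89. H3c6 went from 59.7 to 212 CPM, H3c7 from 25.7 to 151 CPM and H3c13 from 47.6 to 111 CPM. H2ac8 was at 114 CPM in untreated and 6.99 CPM in BLA-A-treated cells, 16.3-fold lower (95% interval 13.96 to 19.3), and H2ac6 and H2ac4 went from 34.1 to 9.15 CPM and from 71.97 to 34.3 CPM. H4c4 was at 1401 CPM in untreated and 459 CPM in BLA-A-treated cells, 3.05-fold lower (95% interval 2.99 to 3.12), although 5 of 12 H4 genes were higher. H2B genes had 4 of 14 higher and 0 lower. The 4 linker histone genes had 0 higher and 0 lower, with H1f4 at 543 CPM in untreated and 920.3 CPM in BLA-A-treated cells. The split by class was made after the values were seen. In BLA, BLU and BLU-A the median of the H3 genes was -1.42, -1.12 and -0.13. It was -1.42, -1.09 and -0.17 for the H2A genes. Histone genes of a class are near-identical and share reads, so the value of a single copy is uncertain.

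**Figure D5:**
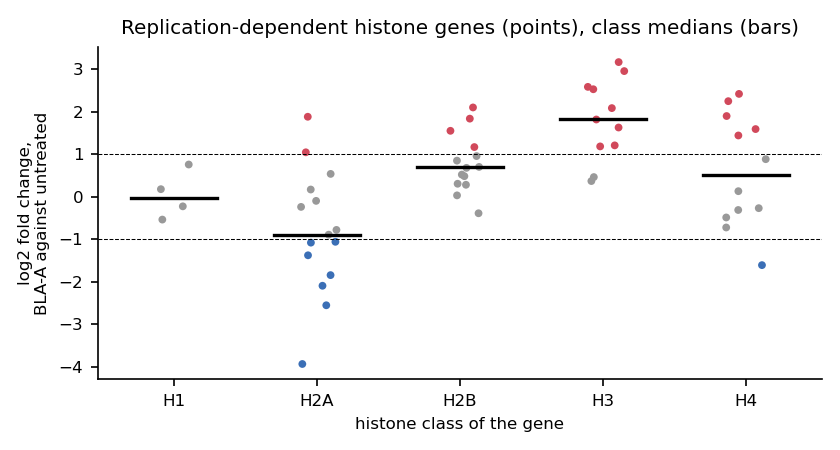
Log2 fold change of BLA-A against untreated cells (y axis, on CPM plus 0.5) of tested replication-dependent histone genes by class (x axis), with class medians as bars and dashed lines at -1 and 1. Most H3 genes lie above 1, with a median of 1.82, and 7 H2A genes lie under -1.

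Cytosolic ribosomal protein genes also went both ways, 11 higher and 19 lower of 83, with a median of -0.29 (-0.48 with total-count scaling). Rplp1, an acidic stalk protein, went from 251 to 917 CPM and Rps15 from 61.6 to 264 CPM, while Rpl6 went from 374 to 144 CPM and Rpl36 from 207 to 73.1 CPM. Fau, which codes for a ubiquitin-like fusion with S30, was at 102 CPM in untreated and 20.6 CPM in BLA-A-treated cells, 4.95-fold lower (95% interval 4.49 to 5.46). These genes have many processed pseudogenes, one of which, Rpl13-ps6, was itself at 51.3 CPM in untreated and 0.216 CPM in BLA-A-treated cells, so that reads may move between copies. Ribosome biogenesis and Myc genes had 2 higher and 2 lower of 31 (0 and 5 with total-count scaling), where Nop58 and Dkc1, proteins of small nucleolar particles, went from 359 to 168 CPM and from 148 to 64.6 CPM. The nucleolar protein Ncl had a log2 fold change of -0.95 at 2072 CPM in untreated and 1069 CPM in BLA-A-treated cells. Proteasome subunits had 4 higher and 3 lower of 33 (2 and 5 with total-count scaling), with Psmb2 going from 45.1 to 116 CPM and Psmd7 from 243 to 88.8 CPM. SR and hnRNP splicing factors had 1 higher and 3 lower of 44 (1 and 6 with total-count scaling). Hnrnpa2b1 was at 1219 CPM in untreated and 294 CPM in BLA-A-treated cells, 4.15-fold lower (95% interval 4.04 to 4.26), and at 816 (BLA), 1001 (BLU) and 1164 CPM (BLU-A).

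Lists of proliferation genes had between 0 and 4 members higher and between 1 and 3 lower. Of mitotic genes 0 of 36 tested members were higher past the threshold (0%) and 2 lower (5.56%), with a median of -0.31. Top2a, the topoisomerase of chromosome condensation, was at 1807 CPM in untreated and 769 CPM in BLA-A-treated cells, 2.35-fold lower (95% interval 2.31 to 2.39), and the kinetochore motor Cenpe went from 499 to 229 CPM. Mki67, Anln and Tpx2 had log2 fold changes of -0.59, -0.58 and -0.62. Hmgb2, a chromatin protein of cycling cells, was at 249 CPM in untreated and 43.4 CPM in BLA-A-treated cells, 5.73-fold lower (95% interval 5.36 to 6.13). The list median was -0.45 (BLA), -0.12 (BLU) and -0.07 (BLU-A), and -0.50 in BLA-A with total-count scaling. Genes of DNA replication and the G1/S step had 2 higher and 3 lower of 38 (1 and 4 with total-count scaling). Tyms and Dut, enzymes of thymidine supply, went from 157 to 70.4 CPM and from 139.7 to 60.7 CPM, whereas Mcm5 of the replicative helicase went from 93.1 to 193 CPM. Cdkn1a, the p21 inhibitor, was at 21.1 CPM in untreated and 69.2 CPM in BLA-A-treated cells, 3.29-fold higher (95% interval 2.98 to 3.62). In its list of cyclin D, CDK inhibitor and p53 target genes, 4 of 22 tested members were higher past the threshold (18.2%) and 1 lower (4.55%) (3 and 2 with total-count scaling), and Phlda3 went from 2.36 to 15.7 CPM and Gadd45a from 76.7 to 16.1 CPM, while Ccnd1 was at 1179 CPM in untreated and 1145 CPM in BLA-A-treated cells.

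Genes of cell death and DNA repair, which the study set out to examine, had between 0 and 4 members past the threshold per list and direction. Of Bcl2 family, caspase and death receptor genes 4 of 37 tested members were higher past the threshold (10.8%) and 0 lower (0%), with a median of 0.21, and scaling by total counts gave 3 higher, 0 lower and a median of 0.02. Bak1 and Bax, which permeabilize the outer mitochondrial membrane, went from 30.2 to 105 CPM and from 7.77 to 25.5 CPM, and the TNF receptor Tnfrsf1a from 31.1 to 68.5 CPM. Bcl2l1 was at 150.3 CPM in untreated and 162 CPM in BLA-A-treated cells and Xiap at 177 and 149.7 CPM. Of genes of homologous recombination and end joining 1 of 31 tested members was higher past the threshold (3.23%) and 1 lower (3.23%) (1 and 3 with total-count scaling), where Xrcc5, the Ku80 subunit, went from 154 to 74.7 CPM and Nhej1 from 3.41 to 9.71 CPM. Rad50, Bard1 and Trp53bp1 had log2 fold changes of -0.91, 0.04 and 0.05. Histone deacetylases and sirtuins had 0 higher and 1 lower of 18, the lower one being Hdac9, which went from 9.68 to 2.63 CPM.

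Signaling lists had between 0 and 4 members past the threshold in each direction. PI3K, AKT and mTOR genes had 1 higher and 1 lower of 28 (0 and 1 with total-count scaling), namely Akt1, which went from 194 to 404 CPM, and Pik3cg. ErbB receptors and ligands had 1 higher and 1 lower of 13. The ligand Areg went from 71.9 to 166 CPM and the receptor Erbb4 from 4.73 to 0.820 CPM. JAK/STAT genes had 0 higher and 2 lower of 21, MAP and PAK kinases with their GTPases 2 higher and 2 lower of 20 (1 and 2 with total-count scaling), and TGF-beta genes 2 higher and 0 lower of 26 (1 and 0 with total-count scaling). Rhoa went from 162 to 391 CPM, Mapk3, the kinase ERK1, from 53.7 to 119 CPM, the ligand Tgfb1 from 76.4 to 196 CPM and the inhibitor Smad7 from 54.9 to 122 CPM. YAP and TEAD genes with their targets had 2 higher and 0 lower of 16 (0 and 0 with total-count scaling), with Ccn1 going from 214 to 477 CPM, and Wnt and Notch genes had 4 higher and 2 lower of 30, with the receptor Fzd7 going from 30.9 to 80.4 CPM. Epithelial to mesenchymal transition genes had 1 higher and 1 lower of 21 (1 and 3 with total-count scaling). Of these, Cldn4, a tight junction protein, was at 17.04 CPM in untreated and 119 CPM in BLA-A-treated cells, 6.97-fold higher (95% interval 6.31 to 7.72), and Twist1 went from 50.5 to 24.98 CPM. Vim had a log2 fold change of -0.93, and Cdh1 of 0.91. Keratins, plaque proteins and lineage factors had 3 higher and 2 lower of 18 (2 and 2 with total-count scaling), with Sox9 going from 116 to 314 CPM and Krt19 from 11.5 to 45.04 CPM. The actin and SRF target list had 2 higher and 1 lower of 28 (1 and 1 with total-count scaling), where Tagln2 went from 81.8 to 286 CPM and Palld from 532 to 191 CPM.

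Genes of ion channels and transmitter receptors formed the lowest list. Of 213 such genes, 125 were tested, 67 were lower (53.6%, against 12.4% of all tested genes) and 9 higher, with a median of -1.10. Grik3, a kainate receptor subunit, was at 18.7 CPM in untreated and 2.59 CPM in BLA-A-treated cells, 7.22-fold lower (95% interval 5.51 to 9.60). The potassium channels Kcnq5 and Kcnh1 went from 39.02 to 16.05 CPM and from 11.9 to 3.71 CPM, and the calcium channel Cacna1d from 14.1 to 6.43 CPM. The potassium channel Kcnn4, known in epithelial and immune cells, was higher and went from 55.6 to 132 CPM. Members of this list were long and weakly expressed, with a median gene length of 119 kb and a median level of 1.76 CPM. Over genes with a mean of at least 10 CPM the list had 1 higher and 3 lower of 21 members with a median of 0.05. A pseudocount of 2 CPM gave 3 higher and 32 lower with a median of -0.55. The part of gene length was not tested. Cadherins and protocadherins, with a median length of 125 kb, had 4 higher and 17 lower of 35 (1 and 18 with total-count scaling) and a median of -0.95. Genes of at least 10 CPM in this list gave 4 higher and 3 lower of 12 members with a median of 0.74, the opposite sign, and a pseudocount of 2 CPM gave 3 higher and 10 lower with a median of -0.46. Pcdh15 went from 44.95 to 9.45 CPM, Cdh13 from 27.7 to 9.23 CPM and Cdh18 from 11.1 to 1.51 CPM, whereas Fat1 was at 584 CPM in untreated and 1145 CPM in BLA-A-treated cells and Pcdh1 went from 24.2 to 69.4 CPM. In BLA, BLU and BLU-A the channel list had medians of -0.51, -0.35 and -0.36, below 0 in each. Subtracting the GC decile median left 69 channel genes lower.

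Transporters went both ways. ABC transporters had 3 higher and 13 lower of 42 and a median of -0.26. At a mean of at least 10 CPM they had 2 higher and 0 lower of 20 members with a median of 0.19, and with a pseudocount of 2 CPM 2 higher and 3 lower with a median of -0.22. The higher members included the cholesterol exporters Abca1, which went from 7.13 to 21.6 CPM, and Abcg1, from 3.86 to 23.1 CPM. Solute carriers had 42 higher and 39 lower of 268 and a median of 0.23. Scaling by total counts gave 26 higher, 42 lower and a median of 0.06, which turned the balance, and a mean of at least 10 CPM gave 31 higher and 3 lower of 142 members with a median of 0.50. The taurine carrier Slc6a6 went from 147 to 363 CPM and the glutamate carrier Slc1a1 from 16.2 to 3.45 CPM. Circadian clock genes had 2 higher and 2 lower of 19 (1 and 2 with total-count scaling), with Per1 going from 11.7 to 46.5 CPM and Rora from 7.50 to 0.388 CPM. Small nucleolar RNA hosts had 2 higher and 1 lower of 14 (1 and 2 with total-count scaling), S100 genes 0 higher and 1 lower of 10 (0 and 2 with total-count scaling), and nuclear long noncoding RNAs 0 higher and 1 lower of 11. The nuclear noncoding list had 5 members above 0 and 6 below, with a median of -0.28 (-0.47 with total-count scaling). Over members of at least 10 CPM the median was 0.21 for 8 genes. Malat1 was at 1616 CPM in untreated and 3087 CPM in BLA-A-treated cells and Gm26917, which took the most counts of any gene, at 57436 and 86607 CPM. Zfp genes, mostly KRAB zinc finger repressors, had 13 higher and 22 lower of 319 and a median of -0.25, and predicted Gm loci 317 higher and 505 lower of 3027 and a median of -0.11. Total-count scaling gave 10 higher, 36 lower and a median of -0.44 for the Zfp genes, and 249 higher, 601 lower and a median of -0.24 for the Gm loci.

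Member lists of Gene Ontology terms in the deposited enrichment table were ranked by the median log2 fold change of BLA-A against untreated cells, over 87 terms with 15 to 200 tested members. The table lists members only for its top-ranked terms, which the enrichment analysis chose on these samples, so these terms are no independent evidence. The deposited scores were not used. Terms with high medians included regulation of intracellular pH (10 higher and 5 lower of 63 tested members, median 0.48), regulation of macrophage migration (5 higher and 2 lower of 26 tested members, median 0.47) and macrophage differentiation (8 higher and 1 lower of 46 tested members, median 0.38). Terms of ossification and gastrulation were also among the 10 highest. The lowest belonged to reflex (0 higher and 11 lower of 22 tested members, median -0.98), homophilic cell adhesion (10 higher and 36 lower of 78 tested members, median -0.85) and catenin complex (2 higher and 11 lower of 25 tested members, median -0.81), followed by retinal ganglion cell axon guidance, potassium ion transport and keratinization. Median gene lengths in the lowest 3 were 94.9, 111 and 124 kb.

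A set of the genes that the study's text names for their expression is given here, and not every named gene is in it. Outside the set, Akt1, Sox9, Fos and Smad7 were higher, and Cdh13, Cdh18 and Tpt1 (log2 fold change -1.85) lower. Members of the set went in both directions or stayed within the threshold. Lower past it, beside Pik3cg, Palld and Hdac9, were Ptprz1, a receptor phosphatase, which went from 68.7 to 3.62 CPM, the angiotensin receptor Agtr1a, from 12.2 to 0.863 CPM, and the splicing factor Rbfox1, from 16.5 to 1.29 CPM. The others were Cdh8 (from 8.18 to 0.129 CPM), Dsg3 (from 7.05 to 0.0863 CPM), Ctnna2 (from 5.93 to 0.216 CPM), Mapk10 (from 5.74 to 0.863 CPM) and the Wnt inhibitor Dkk2 (from 2.93 to 0.0431 CPM). Ptprz1 was at 4.77 (BLA), 4.68 (BLU) and 2.94 CPM (BLU-A), and Dsg3 had 0 counts in each of these libraries, so here too the untreated library stood apart. Higher past the threshold, beside Nhej1, were Wwox, an oxidoreductase gene at a fragile site, which went from 107 to 251 CPM, Sema6c (from 0.600 to 4.44 CPM) and Gm53967 (from 1.88 to 4.96 CPM). Wwox was also above untreated cells in the other treated libraries, at 361 (BLA), 284 (BLU) and 237 CPM (BLU-A). Within the threshold were Maml3, a Notch coactivator, at 282 CPM in untreated and 527 CPM in BLA-A-treated cells (log2 fold change 0.90), Hmga2, a chromatin protein, at 1053 CPM in untreated and 1834 CPM in BLA-A-treated cells (0.80), and Agtr1b at 1.20 CPM in untreated and 0.518 CPM in BLA-A-treated cells (-0.74). Maml3 and Hmga2 were higher in each of the other treated libraries than in BLA-A-treated cells, at 995 (BLA), 858 (BLU) and 688 CPM (BLU-A) and 2637 (BLA), 2515 (BLU) and 2060.0 CPM (BLU-A). Log2 fold changes were -0.38 for Pik3ca, -0.65 for Egfr, 0.54 for Fgfr1, 0.19 for Myc, 0.07 for Map3k1 and 0.73 for Erbb2. They were 0.26 for Xrcc4, 0.05 for Mbd1, 0.10 for Dyrk1b and 0.43 for Mrnip.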

How the data were processed

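Bulk RNA-seq counts of untreated, BLA, BLU, BLA-A and BLU-A 4T1 cells were used as deposited. The authors depleted ribosomal RNA and aligned with STAR to GRCm39. Reads of mapping quality 10 or more were counted on whole genes, introns included, on the forward strand in OmicsBox, and the authors deposited raw counts per gene without normalization. A separate DRAGEN run in the study's supplement was not used here. The submitters' processing notes also name DESeq and DESeq2 1.36.0. The study lists 1 library per condition and 3 read subsets of it, and the labels number these as replicates. Within a condition the 3 columns differed by less than the sampling noise (chi-square per degree of freedom from 0.0951 to 0.475), so they were averaged and rounded to whole counts. Deposited fold changes and p-values of the authors' own comparisons were not used, and the enrichment table gave member names only.

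Genes of 1 CPM in at least 1 library were kept, TMM factors were computed in edgeR 4.0.16 (R 4.3.3) with full library sizes, and log2 fold changes used CPM plus 0.5. With 1 library per condition no test was run. Counting intervals are exact 95% intervals of the ratio of 2 counts (conditional binomial), in Python 3.11.15 with scipy 1.17.1. The floor of 3 counts was 0.113 CPM in untreated and 0.129 CPM in BLA-A. The procedure was tested on simulated data. The simulation drew counting noise around a common profile with set changes in some genes, and held no trend with GC content or length. It cannot show how the scaling and the calls behave under such trends. Gene lists (51), with regular expressions or named members, and the comparison itself were chosen with earlier results of these data known. Genes named are the 15 largest changes in each direction at 10 CPM or more and the same at a mean of 100 CPM or more. Added to these are the 10 highest counts in each library and up to 4 members per list and direction with up to 4 others. The cell type markers and a part of the genes the study names complete the set. Terc, Rpph1, Rn7s2, Gapdh, Ccl2, Lif, Cxcl2, Cxcl3, Creld2, Dnajc3, Maff, Ier5, Dusp1, Fos, Junb, Atf3 and Nr4a1 were named after their values were seen. Some genes that the rule picks are not reported here. Positions, lengths and transcripts came from GENCODE M39 by symbol (16354 of 17647 genes matched), promoter windows from RefSeq. Alternatives covered scaling, pseudocount, filter, left-out columns and GC content.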

Additional observations from a re-analysis of the deposited data

How the results depend on the processing

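A pseudocount of 2 CPM left 826 genes lower, in place of 2187, and 1033 higher. Filters of a mean of at least 1 and at least 10 CPM left 1378 and 424 genes lower, and 1388 and 858 higher, since they test fewer genes. Of 51 gene lists, 13 had more lower than higher members, against 20 with upper-quartile factors, 23 with total counts and 7 with the filter of 10 CPM. Lists with more higher members numbered 30, and 20 with total counts. Without 1 of the 3 read subsets the counts ran from 1505 to 1522 higher and from 2176 to 2199 lower genes. RLE factors gave 1682 higher and 2049 lower genes, and subtracting the GC decile median, chosen after seeing the data, 1193 and 1999. Named genes past the threshold numbered 266, and 269 with a pseudocount of 0.1 CPM. They numbered 228 with total counts, 216 with the GC decile median subtracted and 206 with the filter of 10 CPM. Of the 266, 0 changed sign, but these settings shift values too little to make a change of sign likely. List medians turned sign between normalizations for 8 lists: heat shock proteins, ribosome biogenesis, proteasome, EMT, PI3K, JAK/STAT, S100 and histone deacetylase genes. The cause of these moves was not tested. No paired analysis was possible because the 3 numbered columns of a condition are read subsets of 1 library and no test was run. With 1 library per condition, the spread between cultures is unknown and genes near the threshold or below 1 CPM are the least certain.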
